A study of Sus scrofa with 10 samples.

Results

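The genes described here encode the machinery that releases calcium in striated muscle and takes it up again. 10 gene symbols were listed for their role: the release channels RYR1 and RYR2, the calcium pumps ATP2A1, ATP2A2 and ATP2A3, the calcium stores CASQ1 and CASQ2, the pump regulator SLN, the calcium buffer PVALB and the junction protein JPH2. 9 of the 10 were matched to a gene among the 25880 genes of the expression table, 7 by gene identifier and 2 (CASQ2 and JPH2) by overlap with the RefSeq gene on the same assembly. RYR1 was not analysed here. RNA was taken from pigs of the Northeast Min breed at an age of 60 days, and no treatment or genotype is labelled. Heart, psoas major and longissimus dorsi are the 3 striated muscles, and liver, spleen, lung, kidney, subcutaneous adipose tissue and ovary served as background. The last library was a pool whose label lists ovary, muscle, kidney, lung, spleen, liver and heart. Each tissue gave 1 library, so values carry no error, differences could not be checked against replicates, and no p-value is given.

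As background, a muscle cell contracts when calcium leaves the sarcoplasmic reticulum through ryanodine receptors and relaxes when calcium pumps of the SERCA family return it. In skeletal muscle a voltage sensor in the transverse tubule opens the ryanodine receptor by direct contact, whereas in heart calcium that enters through the membrane channel triggers release. Calsequestrins bind calcium inside the reticulum, junctophilins hold the reticulum against the cell membrane, sarcolipin slows the pump, and parvalbumin binds calcium in the cytosol of fast fibres.

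Levels are in FPKM, fragments scaled by gene length and library size, a unit inferred from the values. Summed FPKM per library ran from 292495 to 369254. The labels give no sequencing depth. The spacing of the lowest values in short genes put it between 11.5 M and 31.6 M fragments per library, uncertain by a factor of 2. The muscle labels fitted their markers: the 4 matched fast-fibre markers summed to 18451 FPKM in psoas major and 29181 in longissimus dorsi against 0.636 in heart, and the heart troponin gene TNNT2 reached 9493 FPKM in heart, with 3.07 and 3.96 in those muscles. The pool held little oocyte RNA for a mixture labelled with ovary, since ZP2, ZP3 and DDX4 summed to 0.296 FPKM in it against 251 in ovary.

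8 of the 9 genes were highest in a striated muscle, against 1952 of the 15637 genes detected in any tissue. The same 8 were at least 5-fold above every other tissue, on the FPKM + 1 scale, in at least 1 striated library, whereas 2.07% of the 15637 genes detected in any tissue were. The genes had been listed for their muscle role, so this count describes how restricted they are and nothing more. The exception was ATP2A3, which was highest in spleen. In bulk tissue, fewer cells of a type and less RNA per cell cannot be told apart.

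**Figure D1:**
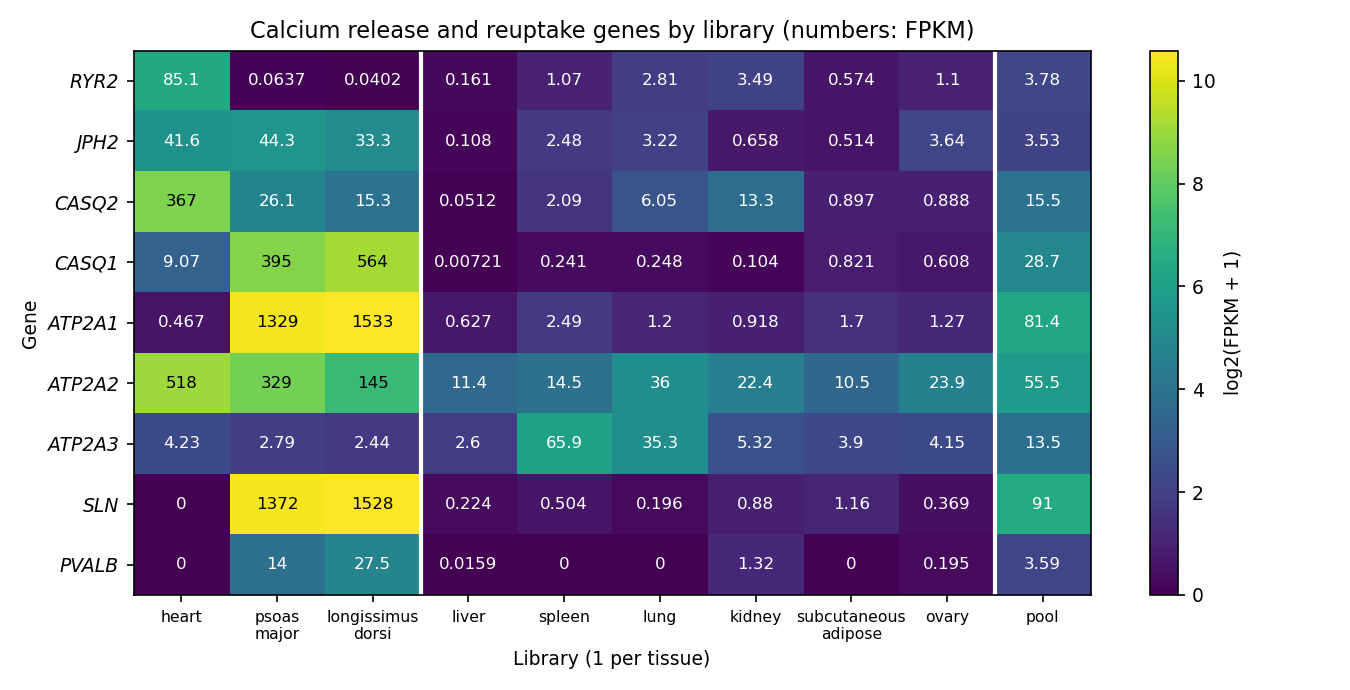
Level of each of the 9 matched genes (rows) in each of the 10 libraries (columns, 1 library each). Numbers are FPKM, colour is log2(FPKM + 1), and white lines set off the 3 striated muscles on the left and the pool on the right. RYR2 and CASQ2 are brightest in heart, ATP2A1, CASQ1, SLN and PVALB in the skeletal muscles, JPH2 is similar in all 3, and ATP2A3 is highest in spleen at 65.9 FPKM.

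The release channel RYR2, the ryanodine receptor known as the cardiac isoform (chromosome 14, 53653486 to 54194883 on Sscrofa11.1), stood at 85.1 FPKM in heart, 0.0637 in psoas major and 0.0402 in longissimus dorsi. It was therefore lower in the skeletal muscles than in any of the other tissues, where it ran from 0.161 in liver to 2.81 in lung and 3.49 in kidney. RYR3, another ryanodine receptor gene, was at 0.0102 FPKM in heart and at 0.120 and 0.136 in the skeletal muscles, and its highest level was 5.29 in ovary. The skeletal muscle values of the family are thus incomplete here, since the skeletal isoform RYR1 was not analysed.

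JPH2, a junctophilin that anchors the reticulum to the cell membrane (chromosome 17, 46593428 to 46638070), differed little among the striated muscles. It stood at 41.6 FPKM in heart, 44.3 in psoas major and 33.3 in longissimus dorsi, and at no more than 3.64 in any other tissue. A second gene model inside the RefSeq span of JPH2, at 46663461 to 46664808, gave 39.9, 34.5 and 26.6 FPKM in the same order. JPH1, the junctophilin known from skeletal muscle, was uneven, at 9.71 in heart, 26.8 in psoas major and 51.7 in longissimus dorsi. The ratio of JPH1 to JPH2 was accordingly 0.234 in heart, 0.605 in psoas major and 1.55 in longissimus dorsi. JPH3 and JPH4, junctophilins best known from neurons, were under 0.4 FPKM in all 3 muscles and highest in ovary, at 4.59 and 13.1 FPKM.

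Calcium storage was divided between the calsequestrin genes. CASQ1, the skeletal isoform (chromosome 4, 90275213 to 90294819), stood at 9.07 FPKM in heart, 395 in psoas major and 564 in longissimus dorsi, and below 1 FPKM in the 6 other tissues. CASQ2, the cardiac isoform (chromosome 4, 104918501 to 104982852), stood at 367 FPKM in heart, 26.1 in psoas major and 15.3 in longissimus dorsi. Together they summed to 376 FPKM in heart, 422 in psoas major and 579 in longissimus dorsi, so the total varied far less than either gene. CASQ2 made up 97.6% of the calsequestrin FPKM in heart, 6.20% in psoas major and 2.65% in longissimus dorsi. Outside striated muscle CASQ2 reached 13.3 FPKM in kidney, close to its level in longissimus dorsi, and 6.05 in lung. The CASQ1 gene model overlaps that of PEA15. PEA15 stood at 41.8 FPKM in heart, but at 56.4 in lung, where CASQ1 was at 0.248.

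Among the calcium pump genes, ATP2A1 was divided between skeletal muscle and heart as CASQ1 was, whereas ATP2A2 was high in all 3 striated muscles. ATP2A1, the gene of the fast skeletal pump SERCA1 (chromosome 3, 18545071 to 18570699), stood at 1329 FPKM in psoas major and 1533 in longissimus dorsi, with 0.467 in heart and 0.627 to 2.49 in the other tissues. These levels placed it at rank 27 of all genes in psoas major and at rank 30 in longissimus dorsi. ATP2A2, which encodes SERCA2 of heart, slow fibres and non-muscle cells (chromosome 14, 31674654 to 31744978), was detected in every tissue. It stood at 518 FPKM in heart, 329 in psoas major, 145 in longissimus dorsi and 10.5 to 36.0 elsewhere. The heart therefore held the highest level of ATP2A2, with psoas major between heart and longissimus dorsi. ATP2A3, the gene of SERCA3 (chromosome 12, 49980493 to 50025204), was at 2.44 to 4.23 FPKM in the 3 striated muscles.

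ATP2A1, ATP2A2 and ATP2A3 summed to 523 FPKM in heart, 1661 in psoas major and 1681 in longissimus dorsi. ATP2A2 made up 99.1% of that sum in heart, 19.8% in psoas major and 8.62% in longissimus dorsi. ATP2A1 made up 80.0% in psoas major and 91.2% in longissimus dorsi. In liver, kidney, adipose tissue and ovary the ATP2A2 share ran from 65.2% to 81.5%. Spleen differed, with 79.5% of its pump FPKM from ATP2A3, and in lung ATP2A2 (49.6%) and ATP2A3 (48.7%) were nearly level.

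**Figure D2:**
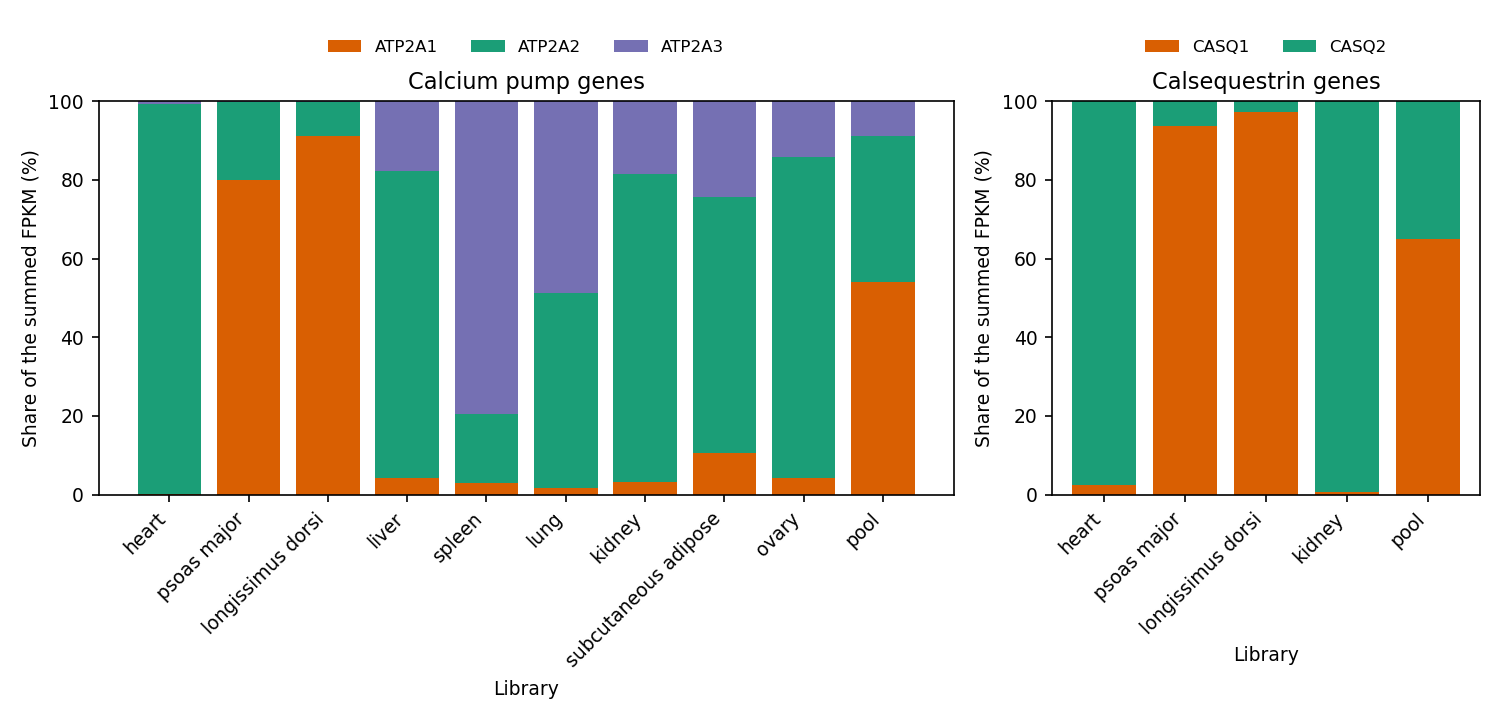
Share of each isoform in the summed FPKM of the calcium pump genes (left) and the calsequestrin genes (right), in percent on the y axis, by library; calsequestrin shares are shown where the sum is at least 10 FPKM. ATP2A2 fills the heart bar at 99.1%, ATP2A1 takes 80.0% and 91.2% of the skeletal muscle bars, and ATP2A3 takes 79.5% of the spleen bar.

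A neighbouring gene followed ATP2A1. The gene model of RABEP2, an endosomal trafficking gene on the opposite strand, overlaps ATP2A1 by 6531 bases. RABEP2 was listed at 156 FPKM in psoas major and 180 in longissimus dorsi, which is 11.7% and 11.8% of ATP2A1, against 1.35 to 8.94 in the other tissues. The sources used here do not state whether the counting used strand, so reads of the genes cannot be told apart there. Outside skeletal muscle RABEP2 was the higher of the pair in every tissue.

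SLN, which encodes the pump inhibitor sarcolipin (chromosome 9, 36232968 to 36242436), stood at 1372 FPKM in psoas major and 1528 in longissimus dorsi. It was listed at 0 in heart and at 0.196 to 1.16 in the other tissues. SLN and the pump gene ATP2A1 were almost equal in FPKM, with a ratio of 1.03 in psoas major and 0.997 in longissimus dorsi. In larger mammals sarcolipin is known from the atria as well as skeletal muscle; the label says heart without naming a chamber, and the atrial markers MYL7 and NPPA were not matched. The other small regulators were less complete: PLN, STRIT1 and ARLN were not analysed here, and MRLN, which encodes the inhibitor myoregulin, was at 4.97 and 4.43 FPKM in the skeletal muscles and listed at 0 in heart.

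PVALB, which encodes parvalbumin (chromosome 5, 10953580 to 10974006), was less abundant in the skeletal muscles than ATP2A1, CASQ1 and SLN. It stood at 13.98 FPKM in psoas major and 27.5 in longissimus dorsi, which put its ratio to ATP2A1 at 0.0105 and 0.0179. It was listed at 0 in heart, spleen, lung and adipose tissue, and at 1.32 in kidney, where parvalbumin is known from the distal convoluted tubule. Its gene model lies within that of NCF4 on the opposite strand. NCF4, a leukocyte oxidase gene, reached 75.05 FPKM in spleen, where PVALB was at 0.

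To compare heart with skeletal muscle, a gene was called when log2(FPKM + 1) in heart differed by at least 2 from each muscle. Of the 9 genes, 2 were higher in heart, RYR2 and CASQ2, where 3.01% of the 11145 genes tested were. 4 were higher in both skeletal muscles, ATP2A1, CASQ1, SLN and PVALB, where 1.91% of the genes tested were. The differences, heart minus the muscle mean, were 6.36 for RYR2, 4.13 for CASQ2, -5.55 for CASQ1 and -9.93 for ATP2A1. SLN and PVALB were listed at 0 in heart, so no size is given for them, and PVALB did not pass with a pseudocount of 5. ATP2A2 (1.24), ATP2A3 (0.53) and JPH2 (0.11) were not called. The median of all genes tested lay 0.41 towards heart, and with that shift removed JPH2 moved to -0.30 and ATP2A2 to 0.83. The counts were 2 and 4 under each scaling tried.

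A wider list of 53 calcium-handling genes, of which 47 were matched, placed these genes in their pathway. 17 of the 47 were 5-fold above every other tissue in a striated library, against 2.07% of all genes tested. Of 43 tested between heart and muscle, 4 were higher in heart (3.01% of all genes tested) and 10 in both skeletal muscles (1.91% of all genes tested). The median difference was -0.75 against 0.41 over all genes. The voltage sensor was mostly on the skeletal side. CACNA1S, its pore subunit, stood at 106 and 154 FPKM in psoas major and longissimus dorsi and was listed at 0 in heart. The adaptor gene STAC3 stood at 277 and 350 against 0.121, and the sensor subunits CACNB1 and CACNG1 were also higher in muscle. CACNB2, a calcium channel subunit of heart, stood at 17.3 in heart and at no more than 0.159 in either muscle. CACNA1C was not analysed here.

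At the junction, TRDN, which encodes triadin and links calsequestrin to the release channel, was called towards muscle at 346 and 333 FPKM against 57.1 in heart. SYPL2 and JSRP1, genes of the skeletal triad, were at 88.1 and 57.2 FPKM in psoas major and under 0.3 in heart. BIN1, which shapes transverse tubules, was at 382 and 326 against 5.76, and the potassium channel gene TMEM38A at 84.7 and 77.2 against 17.2. HRC, a calcium-binding protein of the reticulum lumen, was level at 143 in heart, 132 in psoas major and 128 in longissimus dorsi. SRL (67.1, 54.2 and 50.1 in that order) was similar too. HRC and JPH2 thus varied little between muscles whose calsequestrin and pump isoforms differed, although JPH2 changed sign between heart and muscle when the scaling was changed. Heart minus muscle, HRC (0.13) and SRL (0.36) lay below the median of all genes (0.41), so both turned towards muscle with that shift removed.

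Of the 7 genes for removal of calcium across the cell membrane, 1 was called towards heart, SLC8A1, and 6 were called neither way. SLC8A1, the cardiac sodium-calcium exchanger, reached 91.0 FPKM in heart, with 1.43 in psoas major and 0.539 in longissimus dorsi, where SLC8A3 was at 2.05 and 2.93. The membrane pump genes ATP2B1 to ATP2B4 were not called, with none above 16 FPKM in a striated muscle. CAMK2D, a kinase that acts on calcium-handling proteins in heart, was higher in heart at 345 FPKM against 56.9 and 54.5. CAMK2A was present in all 3 muscles at 82.5, 56.9 and 89.9. S100A1, a calcium sensor protein gene, was called towards heart at 43.4 against 6.77 and 6.24 but was highest in adipose tissue at 209. None of the 4 store refill genes tested, the 3 inositol trisphosphate receptor genes or the 4 mitochondrial uptake genes was called. STIM1, the calcium sensor of store refill, was at 1.72 in heart against 11.8 and 9.77, which passed against psoas major alone.

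**Figure D3:**
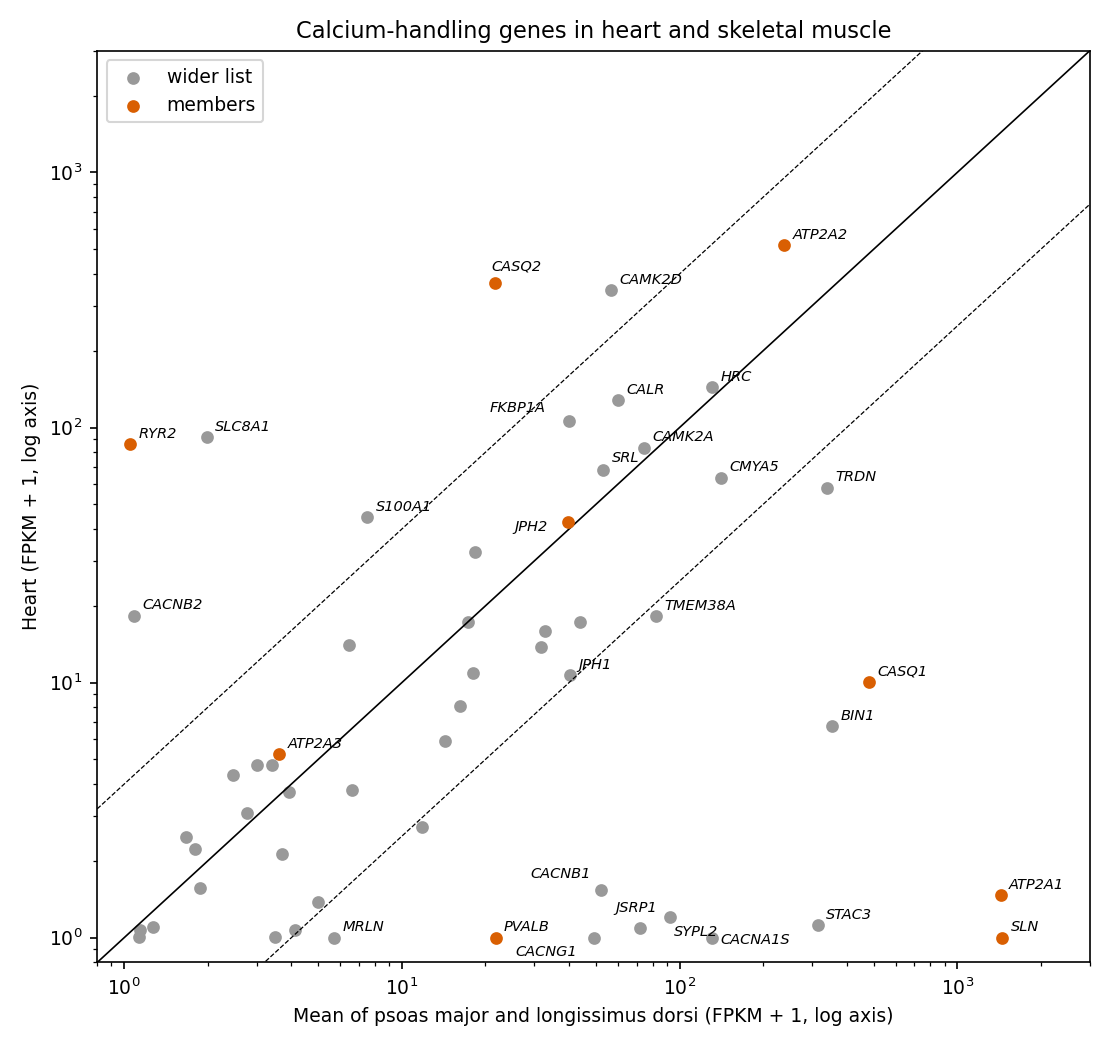
Level in heart (y axis) against the mean of both skeletal muscles (x axis), FPKM + 1 on log axes, for the 9 genes (orange) and 47 genes of the wider list (grey), 1 point per gene. The solid line marks equality and the dashed lines a 4-fold difference. RYR2 and SLC8A1 lie far towards heart, ATP2A1 and SLN far towards muscle, and JPH2 and HRC on the line.

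Psoas major and longissimus dorsi shared their main pump and calsequestrin isoforms and differed in proportion. The ratio of JPH1 to JPH2, in contrast, was below 1 in psoas major (0.605) and above 1 in longissimus dorsi (1.55). Of 8 genes tested, ATP2A2 was at least 2-fold higher in psoas major, with a difference of 1.18 on the log2 scale (329 against 145 FPKM), where 4.66% of the 10513 genes tested were. None was 2-fold higher in longissimus dorsi, where 2.09% of the genes were. CASQ2 lay towards psoas major as well (0.73), and PVALB (-0.93), CASQ1 (-0.51), ATP2A1 (-0.21) and SLN (-0.16) lay towards longissimus dorsi without passing. The median of all genes tested lay 0.27 towards psoas major. With that shift removed, ATP2A2 stood at 0.90 and was no longer called, and PVALB stood at -1.20 and was called. ATP2A1 and SLN changed sign when libraries were rescaled to the mean sum (0.01 and 0.06) or quantile normalised (0.11 and 0.21).

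Fibre-type markers differed between the same libraries. Of the 4 matched fast-fibre markers, TNNT3 (-1.01) and MYH4 (-2.05) were called towards longissimus dorsi, and TNNI2 (-0.48) and MYL11 (-0.52) lay that way without passing, with a sum of 29181 FPKM against 18451. None of the 5 matched slow-fibre markers was called, with a sum of 5309 FPKM in psoas major against 4332. Their differences ran from 0.06 for TNNT1 to 0.67 for MYL3, and those of TNNT1 and MYL2 (0.24) were below the median of all genes, so both lay towards longissimus dorsi with that shift removed. No matched marker of either list was at 0 in a skeletal muscle. The part that fibre type has in the ATP2A2 and PVALB differences was not tested. RNA of other tissues differed too: the 5 hepatocyte markers, 1 of them at 0 in longissimus dorsi and 2 in psoas major, summed to 47.8 and 6.77 FPKM, and the 5 smooth muscle markers to 127 and 195, and their part was not tested either. In the wider list of 42 genes tested, MCU, the mitochondrial calcium channel, was called towards psoas major at 20.9 against 9.63 (4.66% of all genes tested were). ORAI1 was called towards longissimus dorsi at 5.41, but it was listed at 0 in psoas major and kidney. By any difference, 27 of the 42 genes lay towards psoas major and 15 towards longissimus dorsi. Furthest towards longissimus dorsi without passing were JPH1 (-0.92), TMEM38B (-0.77), CACNG1 (-0.68), CACNB1 (-0.67), ATP2B4 (-0.65), CAMK2A (-0.65), JSRP1 (-0.57) and CACNA1S (-0.53).

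**Figure D4:**
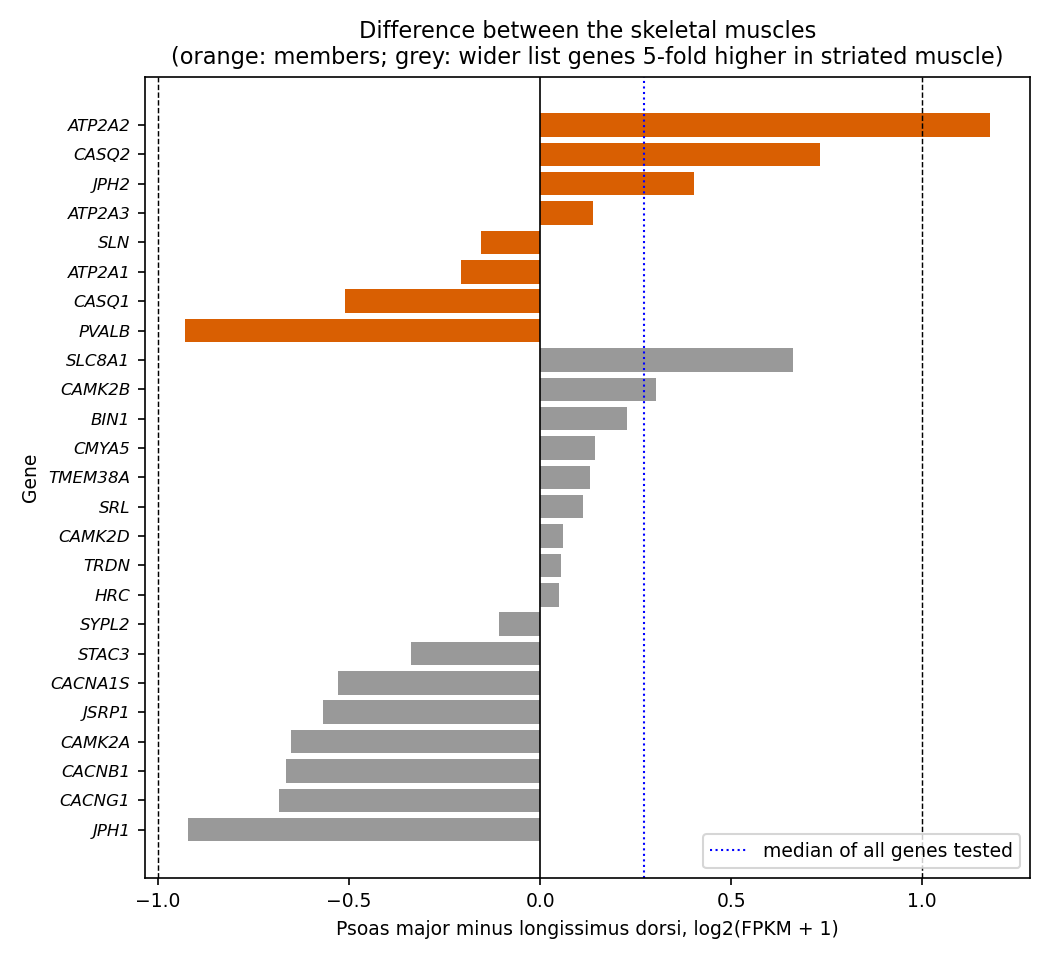
Difference between psoas major and longissimus dorsi in log2(FPKM + 1) (x axis, positive towards psoas major) for the 8 genes tested (orange) and those genes of the wider list that were tested and 5-fold higher in striated muscle (grey). Dashed lines mark the threshold of 1 and the dotted line the median of all genes tested, 0.27. ATP2A2 alone lies beyond a threshold, at 1.18.

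ATP2A3 had a pattern of its own, at 65.9 FPKM in spleen, 35.3 in lung and 2.44 to 5.32 in the other 7 tissues. SERCA3 is known from blood cells, platelets and some epithelia and endothelia. The 6 lymphocyte markers, none of them at 0 in spleen or lung, summed to 255 FPKM in spleen, 56.9 in lung and at most 4.98 in the other tissues. The 3 matched platelet markers summed to 43.9 in spleen and 13.2 in lung, mostly from PPBP (36.5 and 11.8). GP1BB was at 6.84 in spleen and 0 in lung, and GP9 was highest in ovary at 2.88. The 4 matched endothelial markers summed to 82.6 in spleen, 409 in lung and 281 in adipose tissue. The part of these cells in the ATP2A3 values was not tested.

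The pool held each listed gene called towards heart or muscle at a small part of its level there. RYR2 and CASQ2 stood in the pool at 4.44% and 4.23% of heart, beside 3.20% to 6.94% for 6 contractile genes called towards heart. The 4 wider-list genes called towards heart were all higher, at 7.68% for SLC8A1, 9.15% for CACNB2, 9.70% for CAMK2D and 124% for S100A1. ATP2A1, CASQ1 and SLN stood at 5.69%, 5.98% and 6.28% of the mean of the skeletal muscles. PVALB stood at 17.3% (3.59 FPKM), above the 2.58% to 10.6% of the 10 wider-list genes called towards muscle. Some striated-restricted genes called towards neither side were higher: ATP2A2, SRL, CAMK2A and CAMK2B stood at 23.4% to 50.6% of the muscle mean. JPH1, JPH2, HRC and CMYA5, also called towards neither side, stood at 7.69% to 13.8% of the muscle mean. The reference mattered for ATP2A2, which was highest in heart. As a percentage of the highest single tissue, ATP2A2 stood at 10.7%, close to JPH1 at 10.5%. On that scale SRL stood at 23.0%, CAMK2A at 41.3% and CAMK2B at 40.4%. Parvalbumin is also known from neurons. CAMK2A and CAMK2B stood in the pool at 37.2 and 7.33 FPKM, and JPH3 stood at 4.06 against at most 0.198 in any tissue but ovary. Whether the pool values of these genes and of PVALB share a source was not tested.

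**Figure D5:**
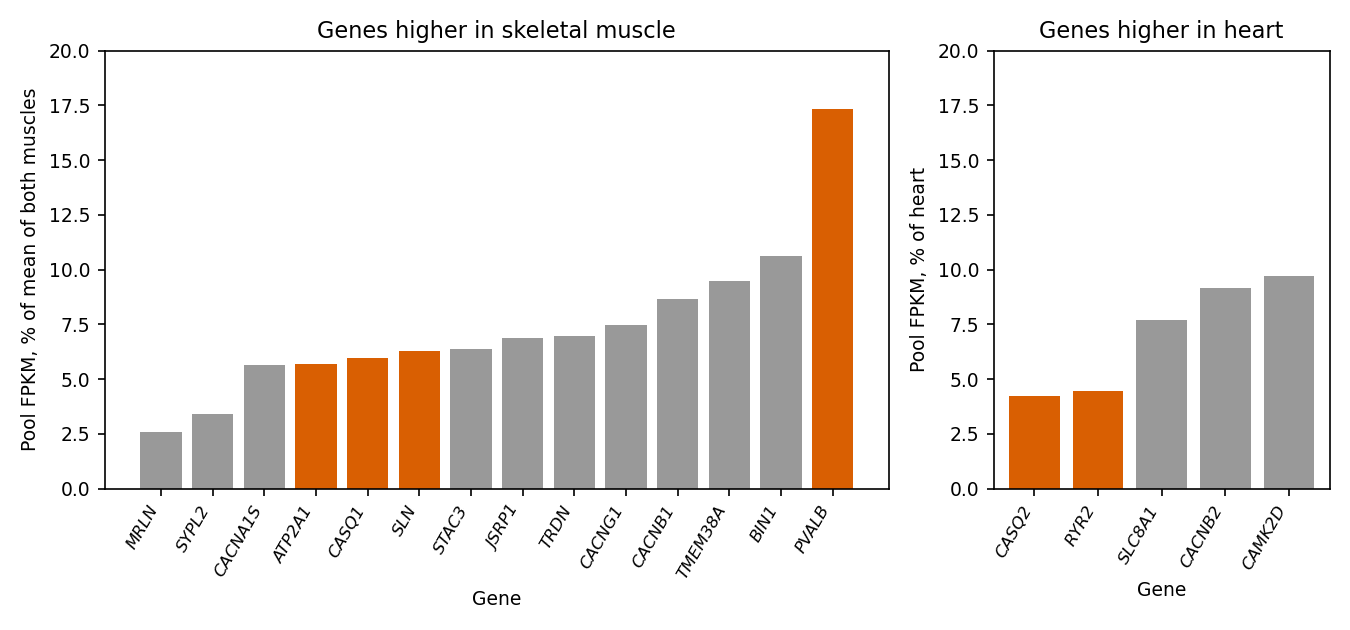
Level in the pool as a percentage of the mean of both skeletal muscles (left) or of heart (right) for genes called towards that side; orange bars are the listed genes and grey bars the wider list, with S100A1 left out because it exceeds 100%. ATP2A1, CASQ1 and SLN lie at 5.69% to 6.28% and PVALB at 17.3%.

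The genes with the most similar pattern over the 9 single tissues were found by Pearson's r of log2(FPKM + 1), among 8602 named genes with at least 10 FPKM in 1 tissue. All coefficients come from the same 9 libraries and are given as a description, with no p-value. For ATP2A1 they were PLCD4 (0.998), CACNA1S (0.998) and SLN (0.997), so a subunit of the voltage sensor and the pump regulator were among its nearest genes. For RYR2 they were RNF207 (0.966), SLC8A1 (0.950) and TNNI3 (0.949). For CASQ1 they were PPP1R3A (0.998), TNNI1 (0.996) and XIRP2 (0.993), and for SLN they were ART1, MYH8 and KLHL33 (all 0.997). The nearest gene of ATP2A2 was TRIM55 (0.979), of JPH2 DTNA (0.991), of CASQ2 NDUFB2 (0.956) and of PVALB TRIM7 (0.986). The nearest genes of ATP2A3 were PTPN7 (0.992), RASAL3 (0.990) and CD8A (0.989), the last a T cell gene. Few of these names held with another measure: Spearman's rho shared 3 of the 27.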

How the data were processed

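RNA-seq libraries from 9 tissues and 1 pool were measured once each. TopHat2 2.1.0, StringTie 1.2.2 and Sscrofa11.1 are named in the submitters' processing notes, which do not state annotation release, strandedness or filters. The values deposited by the authors are not named in the file header and were read as FPKM, from their decimals, their sums and StringTie. All 10 columns were used. Names came from Ensembl identifiers (14857 genes) or a reciprocal RefSeq overlap of at least 0.5 (1714 genes), 64.0% of genes in all, and the row with the highest mean stood for a symbol. Tests need replicates, so only thresholds on log2(FPKM + 1) were used: 5-fold above every non-striated tissue, 2 between heart and each muscle, and 1 between the muscles. Genes needed 1 FPKM in any tissue, in heart or both muscles, or in either muscle. Members, lists and comparisons were chosen with earlier results of these data known. The named genes were the members, the wider list, the markers and the 3 genes nearest to each member. CASQ shares were limited to sums of at least 10 FPKM after the values were seen. Neighbouring genes were named for overlapping a member. Alternatives varied the pseudocount, scaling, filter, centring and threshold. The calls were tested on simulated data. Python 3.11.15, numpy 2.4.6, pandas 2.3.3 and matplotlib 3.10.9 were used. Some marker and neighbouring genes are not reported here.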

Additional observations from a re-analysis of the deposited data

How the results depend on the processing

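The members' counts towards heart (2), towards muscle (4, or 3 with a pseudocount of 5) and restricted to striated muscle (8, or 7 at 10-fold) stayed within 1.5 times under the alternatives run. Between psoas major (1) and longissimus dorsi (0), the members' counts were 0 and 1 with median-of-ratios scaling or the median set to 0, 1 and 1 after quantile normalisation, 4 and 4 for any difference, and 0 and 0 at 4-fold. In the wider list, the counts of 1 towards each were 3 and 1 with a pseudocount of 0.1, 0 and 1 with 5, 0 and 7 with median-of-ratios scaling, 0 and 2 after quantile normalisation, 0 and 3 with the median set to 0, 27 and 15 for any difference, and 0 and 1 at 4-fold. Its heart count of 4 was 2 after quantile normalisation and 2 at 8-fold, its muscle count of 10 was 19 at 2-fold, and its 17 restricted genes were 10 at 10-fold. Over all genes, 61.2% of heart and muscle calls favoured heart, against 46.9% with median-of-ratios scaling, and 69.0% of calls between the muscles favoured psoas major, against 36.7%. Adding 1 to each FPKM moved the ATP2A2 share to 70.3% in liver and 60.2% in adipose tissue, and the kidney shares of CASQ1 and CASQ2 to 7.19% and 92.8%. Of the 27 nearest genes, 13 were shared with a pseudocount of 0.1, 13 with 5 and 3 with Spearman's rho. The second JPH2 gene model, chosen after seeing the data, gave 0.39 between heart and muscle and 0.36 between the muscles. Shares within the RYR family were not run, since RYR1 was not analysed here. No paired analysis was possible because each tissue has 1 library. Depth limits values near 0, for which no interval could be given.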
